A study of Arabidopsis thaliana with 8 samples.

Results

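A group of 68 probe sets on the Arabidopsis ATH1 array was high in mature median nectaries and at least 2 times lower on every array of lateral nectaries. The members were chosen by their signals on these same arrays. A probe set was taken when the lower of the 2 median arrays was at least 2 times the highest of the 6 lateral arrays, on the linear scale. Of 22746 probe sets that are no controls, 78 met this rule, which is 0.343%. The probe sets of 10 genes were then left out, so that 68 remained. The contrast of median with lateral nectaries is therefore a description of the members throughout, with no test, and only the 2 lateral stages are tested against each other on them.

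The samples were nectaries dissected by hand from flowers of ecotype Columbia-0, with no transgene and no treatment in any group. Mature median nectaries (MMN, 2 pools) and mature lateral nectaries (MLN, 3 pools) came from flowers at stages 14 to 15, after the flower opens, and immature lateral nectaries (ILN, 3 pools) from closed flowers at stages 11 to 12. Plants were 30 to 35 days old and were kept in days of 16 h light and 8 h dark, and dissections ran over several days, 4 to 8 h after dawn. Each pool held about 250 to 300 nectaries according to the sample records, was hybridized to 1 array and came from plants of its own. From lateral nectaries 500 ng of RNA entered the labelling and from median nectaries 250 ng, so this difference and the nectary type cannot be told apart. All signals are linear intensities with an array median of 100, array minima ran between 8.30 and 9.65, and in pooled tissue fewer cells of a kind and less RNA in each cell cannot be told apart.

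Lateral nectaries sit at the base of the short stamens and secrete nearly all the nectar of an Arabidopsis flower, while median nectaries sit between the long stamens and secrete little or none. MMN are thus mature tissue of the same flower age as MLN without the main secretory output, and ILN are tissue in which secretion has not begun. Among the processes the members belong to, the GABA shunt turns glutamate into the amino acid GABA and returns its carbon to the citric acid cycle, and its first enzyme, glutamate decarboxylase, is activated by calcium and calmodulin. Late embryogenesis abundant (LEA) and related cold-regulated proteins build up in seeds and in tissue that loses water or cools. Plasma membrane intrinsic proteins are aquaporins that let water across the plasma membrane.

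Genes that define nectaries were bright on all 8 arrays, which does not tell the 3 nectary types apart. CRC, the YABBY regulator that nectaries need to form, SWEET9, the sucrose exporter of nectaries, cwINV4, a cell wall invertase of nectar secretion, and YAB5 lay between 2587 and 16897 on all 8 arrays, and none was called in the comparisons of the 3 types. A further 6 measured probe sets mark other cell or tissue types. The anther gene A9 (AT5G07230), at 22.9 to 31.9, and RBE of petals, at 24.2 to 36.3, stayed below the array median. So did the xylem gene IRX3, at 31.9 to 84.2. INO of ovules ran between 47.7 and 108 and was above the array median in MLN 1 only. FAMA (FMA) of guard cells ran between 89.5 and 158 and was above the array median on every array except MLN 2. The paper states that Arabidopsis nectaries bear many modified stomata, so FAMA cannot mark tissue from outside the nectary. The pollen probe set of VGD1 and VGDH1 ran between 24.4 and 414. Of 35 marker genes listed, 10 had a probe set that could be named, and no marker of green tissue, phloem, abscission zones or epidermis was among them.

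One median array stood apart in a set of genes. The 2 MMN arrays correlated at 0.99 over all probe sets on the log2 scale, yet 63 probe sets were at least 3 times higher in MMN 2 than in MMN 1 (0.277% of all), and none was at least 3 times higher in MMN 1. Of the members 5 belong to these 63, which is 7.35% of them. The pollen pectin methylesterase genes VGD1 and VGDH1, which share a probe set, had signals of 57.0 and 414 in MMN, 170.2, 101 and 81.9 in MLN, and 24.4, 66.0 and 62.2 in ILN. A9, the only other measured gene of 4 anther and pollen markers, read 27.85 in MMN 1 and 23.96 in MMN 2 and so was not higher in MMN 2. Summed, both probe sets gave 84.8 in MMN 1 and 438 in MMN 2, 114 to 199 in MLN and 53.8 to 88.9 in ILN. Most of the 438 came from the VGD1 and VGDH1 probe set. The part of pollen RNA in the members' signals was not tested. Since the rule rests on the lower MMN array, it can be relaxed but not tightened by leaving an array out: on MMN 1 alone 106 probe sets met it, on MMN 2 alone 173, and both groups held all 68.

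**Figure D1:**
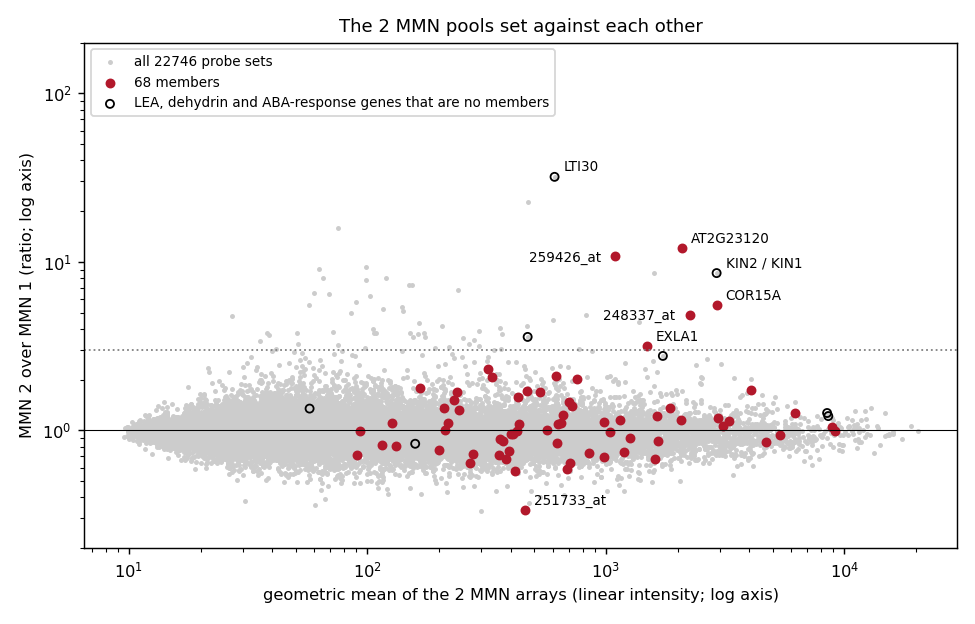
Ratio of MMN 2 to MMN 1 (vertical, log axis) against the geometric mean of both arrays (horizontal, linear intensity on a log axis), with every probe set in grey, the 68 members in red, the LEA, dehydrin and ABA-response genes that are no members as open circles, and a dotted line at 3. Most members lie near 1, AT2G23120 (12.0), 259426_at (10.8), COR15A (5.52), 248337_at (4.86) and EXLA1 (3.15) lie above the dotted line, and 251733_at is lowest at 0.336.

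Between the members the level varied widely and the excess over lateral nectaries was mostly moderate. The mean signal of a member in MMN ran between 92.1 and 9133 with a median of 641, against a median of 138 for the MLN means and 64.9 for the ILN means. The ratio of the lower MMN array to the highest lateral array had a median of 2.59 and exceeded 3 for 21 members, 5 for 4 and 10 for 1. As geometric means, MMN signals were 2.29 to 22.7 times those of MLN (median 3.94) and 2.91 to 167 times those of ILN (median 7.20). All 6 lateral arrays lay below the array median of 100 for 20 members, and 18 of those were above 100 on both MMN arrays. At the other end, 20 members passed 1000 on both MMN arrays. HVA22D, an abscisic acid-responsive gene of the HVA22 family, and AT1G20070 were the brightest. The MMN arrays gave 9156 and 9109 for HVA22D and 8663 and 9074 for AT1G20070.

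**Figure D2:**
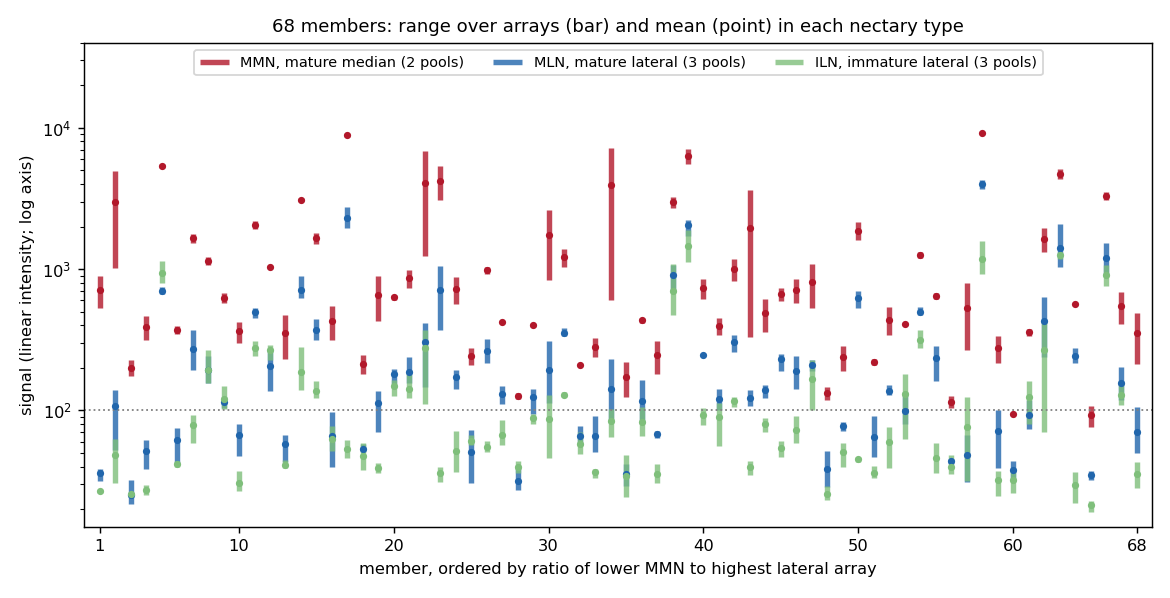
Signal of the 68 members (vertical, linear intensity on a log axis) in MMN (red), MLN (blue) and ILN (green), with the range over arrays as a bar and the mean as a point; members are ordered from the largest ratio of lower MMN to highest lateral array on the left to the smallest on the right, and the dotted line is the array median of 100. The red bars lie above both others for every member, as the rule requires, and blue bars lie mostly above green ones.

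Glutamate decarboxylase, the first step of the GABA shunt, gave 2 members. The probe set shared by GAD3 and GAD4, a neighbouring pair of glutamate decarboxylase genes, had the largest ratio of all, 13.9, with signals of 895 and 530.2 in MMN, 38.2, 37.8 and 31.5 in MLN, and 25.9, 27.5 and 26.7 in ILN. In both lateral types it stayed at or below 38.2 on every array, and in MMN 2 it was lower than in MMN 1 but still many times the lateral level. GAD1 (GAD in the reference table), the decarboxylase best known from roots, had a ratio of 5.06 and signals of 464 and 314 in MMN, 62.0, 54.6 and 38.5 in MLN, and 25.1, 29.8 and 27.2 in ILN. Both probe sets were higher in MMN 1 than in MMN 2. Of the 9 GABA shunt genes listed, only those read by these 2 probe sets could be assigned one, and the enzymes after GAD are not analysed here. Signals of GAD3 and GAD4 cannot be told apart on this array.

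Calcium signalling was represented by CPK29, a calcium-dependent protein kinase, and CML23, a calmodulin-like protein. CPK29 had a ratio of 5.43 and signals of 227 and 174 in MMN, 22.1, 32.1 and 21.6 in MLN, and 25.5, 26.1 and 25.7 in ILN. Its 6 lateral values lay within 21.6 to 32.1, near the low end of the arrays, with no order between MLN and ILN. CML23 was less distinct, at 415 and 452 in MMN, 163, 82.4 and 104 in MLN, and 106, 75.6 and 65.8 in ILN, and its MLN and ILN arrays overlapped. The 3 other calcium-dependent protein kinases that could be assigned a probe set did not meet the rule. CPK1 had 377 and 272 in MMN, 210.4, 188 and 299 in MLN, and 154, 174 and 168 in ILN, so that 1 MLN array was above the lower MMN array. In the fit of all arrays CPK1 was called higher in MMN than ILN, by 0.95 on the log2 scale (SE 0.25, limma adjusted p = 0.0206). This call was lost without ILN 2, with either MMN array left out, and by the methods' t-test. CPK1 was not called in MMN against MLN. CPK13 had both MMN signals inside the range of the lateral ones, and CPK28 had 1 of them inside it.

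Of the 13 aquaporin genes listed, only those read by 2 probe sets could be assigned one. Both probe sets were high in median nectaries, and only the first met the rule. The probe set shared by PIP2B and RD28 read 1783 and 1539 in MMN, 193, 371 and 256 in MLN, and 58.8, 92.5 and 85.8 in ILN. MLN already lay above ILN on every array, by 1.76 on the log2 scale (SE 0.26, limma adjusted p = 6.93e-04), and the lower MMN array was 4.15 times the highest MLN array. PIP2;5, which is no member, was among the brightest of the listed genes, at 13375 and 14157 in MMN, 5522, 4224 and 6868 in MLN, and 552, 1065 and 2175 in ILN. Its MMN arrays were also above all MLN arrays, but the difference of 1.34 on the log2 scale (SE 0.44, limma adjusted p = 0.346) was not called. It was called with a block for replicate number (1.68 on the log2 scale, limma adjusted p = 0.0394), with array weights (0.0378), in a fit of only the 2 groups (0.0135) and without ILN 1 (0.0418).

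Several members encode enzymes of primary and specialised metabolism. NADP-ME1, an NADP-dependent malic enzyme that turns malate into pyruvate, had 681 and 574 in MMN, 124, 118 and 104 in MLN, and 149, 109 and 102 in ILN, with MLN and ILN overlapping and the lower MMN array 3.86 times the highest of them. The probe set of AT3G55290 and AT3G55310, of the short-chain dehydrogenase family, was the brightest of the leading members at 5556 and 5202 in MMN, 701, 665 and 746 in MLN, and 793, 868 and 1132 in ILN, and was well above the array median in every nectary. AT3G07270, which encodes GTP cyclohydrolase I of folate synthesis, read 993 and 729 in MMN, 239.5, 164 and 155 in MLN, and 182, 122 and 123 in ILN. GLC (GLAUCE), an acyltransferase of the BAHD family, was read by 2 probe sets that were both members. The brighter one gave 1068 and 1222 in MMN, 179, 242 and 157 in MLN, and 155, 158 and 266 in ILN, a ratio of 4.02. The dimmer one gave 209.9 and 212 in MMN, 77.6, 62.8 and 56.8 in MLN, and 70.3, 48.8 and 54.6 in ILN, a ratio of 2.71. MLN and ILN overlapped on both probe sets of this gene.

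The named members given here for secreted or cell wall products stayed at or below 308 on every lateral array. Products of the unnamed members are not known here. ATSBT5.2, a subtilisin-like protease, read 550.4 and 314 in MMN, 97.7, 58.4 and 40.0 in MLN, and 77.4, 58.6 and 51.3 in ILN, and the 2 MMN arrays differed more than its MLN and ILN means. SCPL45, a serine carboxypeptidase-like protein, read 605 and 660.2 in MMN, 154, 191 and 197 in MLN, and 164, 158 and 127 in ILN. AT2G19970, of the family of the pathogenesis-related protein PR-1, read 423 and 302 in MMN, 47.6, 80.0 and 74.6 in MLN, and 27.1, 37.2 and 27.7 in ILN. It is separated from NADP-ME1 on its chromosome by 6 protein-coding genes. No other 2 named members lay within 10 positions of each other in the order of protein-coding genes. AT2G43670, of the carbohydrate-binding X8 domain family, had a ratio of 3.10. EXLA1, an expansin-like gene, read 837 and 2634 in MMN, 162, 112 and 308 in MLN, and 128, 85.4 and 45.9 in ILN, and its MMN 2 signal was 3.15 times that of MMN 1. EXLA2, its relative on the same list, is no member and read 131 and 128 in MMN, 67.0, 62.4 and 60.9 in MLN, and 69.1, 101 and 83.9 in ILN, which put both MMN arrays above all lateral ones at a difference from MLN of 1.03 on the log2 scale (SE 0.22, limma adjusted p = 0.0755). It was called with array weights (0.00874) and without ILN 1 (0.0309).

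NDR1/HIN1-like proteins, a plasma membrane family named after a gene of bacterial resistance, gave 2 members with different lateral patterns. AT3G52470 read 1046 and 1026 in MMN, 136, 270.1 and 212 in MLN, and 226, 288 and 291 in ILN, so that ILN tended to exceed MLN, with overlap. NHL1 read 1593 and 2152 in MMN, 638, 699 and 529.6 in MLN, and 46.5, 46.8 and 43.2 in ILN, so that MLN lay between the other 2 types and ILN was near the low end of the arrays. AT2G35460, of the same family and no member, had 98.7 and 58.9 in MMN and 47.4 to 114 in the lateral arrays. TIN1, a gene induced when protein folding in the endoplasmic reticulum is disturbed by tunicamycin, had a ratio of 4.59 and signals of 397 and 345 in MMN, 69.8, 75.2 and 41.5 in MLN, and 43.9, 42.7 and 39.4 in ILN. The other measured genes of endoplasmic reticulum folding and stress were at or above 431 on every array, and none was called in MMN against MLN in the fit of all arrays. The chaperone pair BIP1 and BIP2, on a shared probe set, read 4817 and 3201 in MMN, 1504, 1926 and 1512 in MLN, and 2012, 4472 and 3272 in ILN, so that ILN reached the level of MMN. It was called in MMN against MLN with array weights (adjusted p = 0.0115), in a fit of only those groups (0.0278) and without ILN 1 (0.0196), and the co-chaperone gene ATERDJ3B was called with array weights (0.0406).

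**Figure D3:**
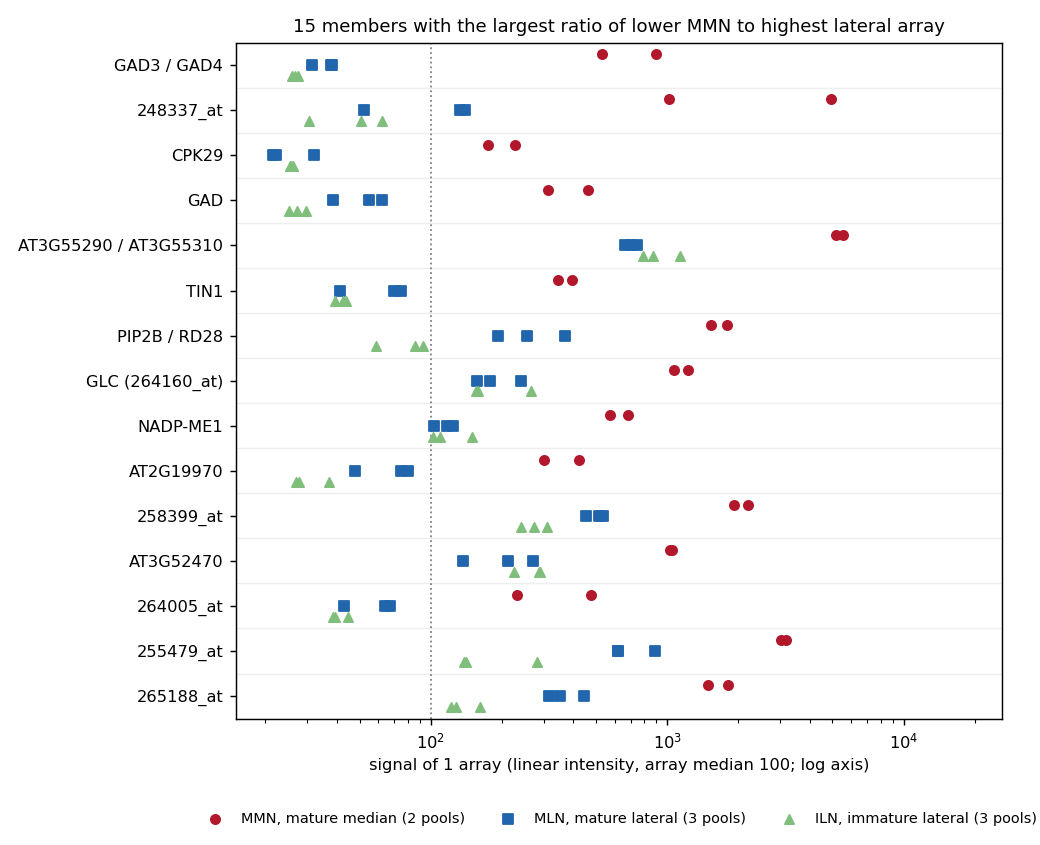
Signal on each of the 8 arrays (horizontal, linear intensity on a log axis) for the 15 members with the largest ratio, MMN as red circles above MLN as blue squares above ILN as green triangles, with a dotted line at the array median of 100. GAD3 / GAD4, CPK29, GAD and TIN1 are below 100 on all 6 lateral arrays and at or above 174 on both MMN arrays, while AT3G55290 / AT3G55310 is at or above 665 everywhere.

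LEA and cold-regulated genes included some of the brightest members, and in some of them the 2 MMN pools lay far apart. LEA7 read 3070.2 and 5342 in MMN, 1046, 722 and 370.1 in MLN, and 31.3, 37.7 and 39.4 in ILN, which orders the 3 types without overlap. COR15A, which protects chloroplast membranes in the cold, read 1241 and 6848 in MMN, 417, 145 and 346 in MLN, and 372, 111 and 351 in ILN. AT2G23120, an LEA protein gene, read 599 and 7215 in MMN, 230.1, 86.2 and 111 in MLN, and 64.9, 86.0 and 102 in ILN. In both the MMN 2 value was several times that of MMN 1, by 5.52 and 12.0, while MMN 1 alone was 2.98 and 2.60 times the highest lateral array. The probe sets 259426_at and 248337_at, which have no gene name here, behaved in the same way, with MMN signals of 333 and 3598 for the first and 1018 and 4950.2 for the second. HVA22D, by contrast, was level between the pools and read 9156 and 9109 in MMN, 3694, 4066 and 4234 in MLN, and 1056, 921 and 1574 in ILN.

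The 8 other probe sets that could be assigned to LEA, dehydrin and ABA-response genes showed several patterns. None was called in MMN against MLN in the fit of all arrays, against 0.572% of all probe sets called higher and 0.158% called lower, and their median difference was 0.68 on the log2 scale against -0.03 for all probe sets. LTI30, a dehydrin that lay just outside the rule at a ratio of 1.98, read 108 and 3444 in MMN, 47.1, 39.8 and 54.3 in MLN, and 23.9, 24.4 and 27.4 in ILN. The shared probe set of the cold-induced genes KIN1 and KIN2 read 994 and 8532 in MMN, 698, 451 and 401 in MLN, and 742, 1030.4 and 1664 in ILN. COR15B, a close relative of COR15A, read 248 and 889.6 in MMN, 115, 107 and 149 in MLN, and 136, 97.9 and 214 in ILN. These 3 followed MMN 2, with adjusted p between 0.112 and 0.173 in MMN against MLN, and all 3 were called when MMN 1 was left out (limma adjusted p = 1.46e-05 for LTI30, 0.00311 for KIN1 and KIN2, and 0.0170 for COR15B). With MMN 2 left out none was called. COR15B was also called with the replicate block (0.0428) and with array weights (0.0390). ERD10 and COR47, both dehydrins, overlapped MLN in MMN and lay far above ILN. ERD10 read 7766 and 9439 in MMN, 6285, 8102 and 7908 in MLN, and 1442, 1424 and 1147 in ILN. COR47 read 7518 and 9529 in MMN, 4397, 4425 and 8276 in MLN, and 394, 231 and 197 in ILN. ERD14, another dehydrin, read 1042 and 2883 in MMN, 944, 1008 and 1381 in MLN, and 289, 170.5 and 180.5 in ILN, so that MMN 2 alone lay above MLN. RD22 and the dehydrin gene RAB18 went another way. RD22 read 174 and 145 in MMN, 139.8, 153 and 58.3 in MLN, and 376, 1540.0 and 2680.5 in ILN. RAB18 read 49.3 and 66.4 in MMN, 37.4, 28.8 and 40.6 in MLN, and 43.8, 124 and 243 in ILN. Both were lower in MLN than ILN, by limma (adjusted p = 0.00169 for RD22 and 0.0277 for RAB18), and the MMN arrays lay below all ILN arrays for RD22 and among them for RAB18. Of the 10 probe sets of this list, members included, 4 were at least 3 times higher in MMN 2 than in MMN 1.

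Regulators among the members were mostly of moderate signal. AGO7, the Argonaute protein that makes trans-acting small RNAs of leaf and organ polarity, had 208 and 229 in MMN, 47.0, 91.6 and 55.1 in MLN and 33.1, 40.1 and 34.0 in ILN. SUVH9, which takes part in RNA-directed DNA methylation, had 1331 and 1191 in MMN, 472, 536 and 470.5 in MLN and 368, 294 and 275 in ILN. ZAT6, a zinc finger regulator of stress and phosphate responses, had 599 and 734 in MMN, 251, 253 and 190.1 in MLN and 55.3, 61.1 and 46.8 in ILN. In each of the 3 the order of means was MMN, MLN and ILN with no overlap. SRO5, of a family that responds to oxidative stress and salt, had a ratio of 2.46. Named members of other kinds are also given here. BCB, a blue copper-binding protein, had the smallest ratio of all. NCED4, a carotenoid cleavage enzyme, and PP2-A2, of the phloem protein lectin family, had ratios of 2.16 and 2.13. AT4G39670, of the glycolipid transfer protein family, and AT4G09760, of the choline kinase family, had ratios of 2.54 and 2.05.

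The other named members, for which no role is given here, were AT1G20070, AT3G13760, AT1G72960, AT3G55690, AT1G56020, AT3G28960, AT1G07590, AT1G73390, AT3G55870 and AT1G72240, with ratios between 2.11 and 3.13. One further member is shared by AT1G66500 and AT5G43620, with a ratio of 2.36. A further 26 members carry no gene name in the sources used and are given by probe set only. Their ratios ran between 2.01 and 7.30, and 6 of them exceeded 3. The highest, 248337_at, read 1018 and 4950.2 in MMN, 133, 52.0 and 139.5 in MLN, and 50.6, 30.7 and 62.5 in ILN. Next came 258399_at at 1919 and 2204 in MMN, 534, 512 and 452 in MLN, and 309.8, 274 and 242 in ILN, where MLN exceeded ILN on every array. The dimmer 264005_at read 231 and 476 in MMN, 67.0, 42.8 and 64.1 in MLN, and 39.2, 38.8 and 44.6 in ILN, with MLN and ILN overlapping. Both 255479_at and 265188_at had MMN above MLN and MLN above ILN on every array. The first read 3017 and 3186 in MMN, 621, 621 and 892 in MLN, and 282, 139 and 141 in ILN. The second read 1493 and 1808 in MMN, 445, 317 and 352 in MLN, and 162, 128 and 122 in ILN. Of all members 251733_at, singled out after its values were seen, alone was at least 2 times higher in MMN 1 than in MMN 2, at 793 and 266 in MMN, 31.3, 66.8 and 47.3 in MLN, and 31.6, 124 and 74.1 in ILN.

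Membership near the rule's limit depended on small differences. Just inside lay BCB with a ratio of 2.0023, 260023_at with 2.0061 and 256017_at with 2.0298. Just outside lay AT1G48750 with 1.9904, LTI30 with 1.9832 and 260928_at with 1.9819.

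Between the lateral stages the members were more often higher at maturity. The rule took the lateral arrays only as a ceiling and set no order between MLN and ILN, so this contrast was tested. It did require a signal above ILN in MMN, which are of the same flower age as MLN. Few members were dim: 1.47% had both MMN arrays under 100, against 47.9% of all probe sets. The shares over all probe sets below are matched for neither, and how far the choice of members raised their own shares was not tested. In limma, with adjustment over all 22746 probe sets, 29 of the 68 members were higher in MLN than in ILN and none was lower. This is 42.6% of the members, beside 12.0% of all probe sets called higher and 11.5% called lower. At an unadjusted p under 0.05, limma had 36 members higher and 0 lower. The methods' t-test, with equal variances and on linear signals, had 29 members higher and 0 lower before adjustment, and 10 higher and 0 lower after Benjamini-Hochberg adjustment. Shares of all probe sets for the unadjusted counts and the t-test are not given here, and the 12.0% and 11.5% are no baseline for them. All 3 MLN arrays exceeded all 3 ILN arrays for 34 members (50.0%, against 25.8% of all probe sets) and lay below them for 1 (1.47%, against 15.2%). The median difference of the members was 0.66 on the log2 scale, against 0.17 for all probe sets, with 58 members above 0 and 10 below. The highest lateral array, which set the ratio, was an MLN array for 55 members and an ILN array for 13. For neither of these splits is the share over all probe sets given here, and the last one is drawn from a value the rule used.

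The largest rises between the lateral stages were far larger than the spread between pools. AT1G20070 read 8663 and 9074 in MMN, 2164, 2765 and 1943 in MLN, and 53.2, 45.8 and 61.8 in ILN, a difference of MLN from ILN of 5.41 on the log2 scale (SE 0.19, limma adjusted p = 9.62e-08), or 42.6-fold. LEA7 differed by 4.18 on the log2 scale (SE 0.34, limma adjusted p = 1.55e-05) and NHL1 by 3.76 on the log2 scale (SE 0.19, limma adjusted p = 1.19e-06). These members were below the array median in ILN and above it in MLN, with no overlap. AT4G09760 read 565 and 568 in MMN, 229.6, 218 and 276 in MLN, and 36.7, 29.9 and 22.0 in ILN and differed by 3.05 on the log2 scale (SE 0.22, limma adjusted p = 7.56e-06). NCED4 read 617 and 681 in MMN, 286, 160.4 and 260.3 in MLN, and 36.1, 59.0 and 42.6 in ILN and differed by 2.35 on the log2 scale (SE 0.26, limma adjusted p = 1.21e-04). The probe set 265418_at read 924 and 1036 in MMN, 216, 259 and 320.1 in MLN, and 50.8, 60.6 and 54.6 in ILN and differed by 2.24 on the log2 scale (SE 0.20, limma adjusted p = 3.00e-05). For all 6, every MMN array was above every MLN array and every MLN array above every ILN array. By the methods' t-test LEA7 (adjusted p = 0.134), NCED4 (0.0846) and 265418_at (0.0544) were not called, while AT1G20070, NHL1 and AT4G09760 were.

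Other members had no difference between the lateral stages that passed the test. CPK29 differed by -0.05 on the log2 scale (SE 0.20, limma adjusted p = 0.848), NADP-ME1 by -0.05 on the log2 scale (SE 0.21, limma adjusted p = 0.880) and ATSBT5.2 by -0.01 on the log2 scale (SE 0.33, limma adjusted p = 0.984). All 3 differences were smaller than their SE. The GAD3 and GAD4 probe set had all MLN arrays above all ILN arrays, yet by only 0.42 on the log2 scale (SE 0.22, limma adjusted p = 0.188), both near the low end. GAD1 was called higher in MLN, by 0.89 on the log2 scale (SE 0.24, limma adjusted p = 0.0181), and this call was lost without MLN 1 (adjusted p = 0.0770) and without MLN 2 (adjusted p = 0.0589). In all, 22 of the 29 calls were kept with each array left out in turn. The others were GAD1, AGO7, SUVH9, PP2-A2, AT3G28960, 256833_at and 253214_at.

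**Figure D4:**
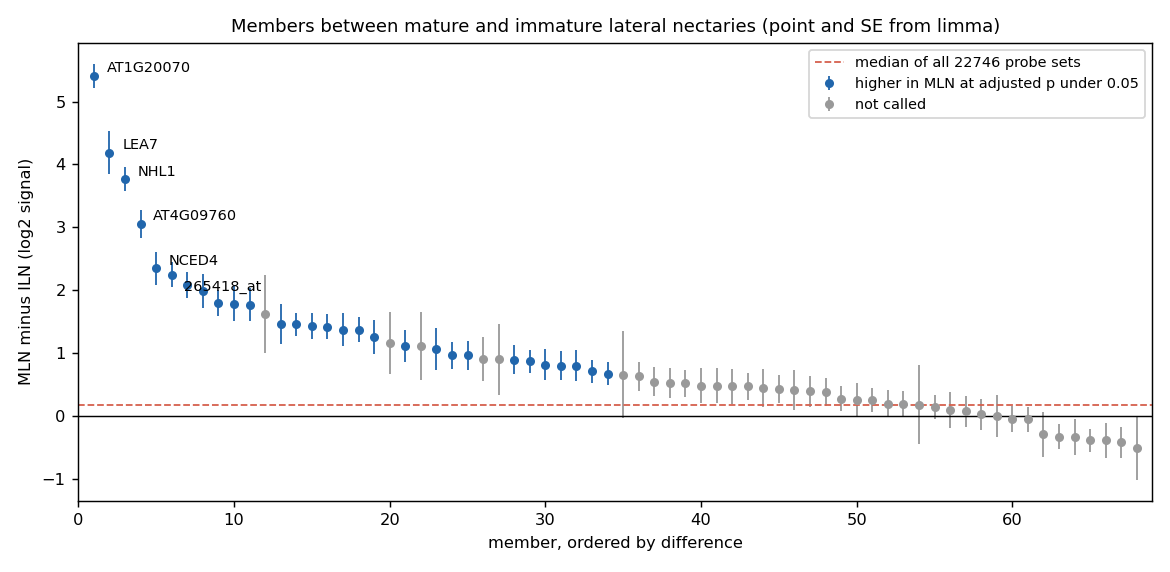
Difference of MLN from ILN for the 68 members (vertical, log2 signal; horizontal, members in order of the difference), with the limma estimate as a point and its standard error as a bar; blue members are called higher in MLN (29), grey ones are not called (39), and the dashed line is the median of all probe sets at 0.17. AT1G20070, LEA7, NHL1 and AT4G09760 exceed 3, and no member is called lower.

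Relatives and pathway partners of the members were taken from 19 gene lists with 190 genes. To these genes 58 probe sets could be assigned, of which 11 are members and 47 are not. Genes without an assigned probe set may be read by unnamed probe sets, the 26 unnamed members included. Of these 47, 1 was higher and 1 lower in MMN than MLN (2.13% each, against 0.572% and 0.158% of all probe sets). At an unadjusted p under 0.05 in limma, 11 were higher and 2 lower. The share of all probe sets at that threshold is not given here, and the 0.572% and 0.158% are no baseline for it. The median difference of the 47 was 0.27 on the log2 scale, against -0.03 for all probe sets. In MMN against ILN 17 were higher (36.2%, against 9.97% of all) and 4 lower (8.51%, against 8.86%), with a median of 0.45 against 0.11. The lists were drawn up around the members, and these counts are given as a description.

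GASA4, a small gibberellin-regulated peptide of the cell wall, was the gene called higher in MMN than MLN. It read 2772 and 2320.1 in MMN, 332, 242 and 358 in MLN, and 1425, 695 and 1207 in ILN, a difference of 3.05 on the log2 scale (SE 0.30, limma adjusted p = 7.98e-04). It missed the rule only because ILN was also high, and MLN was lower than ILN, with a difference of -1.79 on the log2 scale (SE 0.27, limma adjusted p = 6.74e-04). JMT, the methyltransferase that makes methyl jasmonate, was the gene called lower. It read 1932 and 4763 in MMN, 14178, 12445 and 19214 in MLN, and 4749.7, 2689 and 3826 in ILN, a difference of -2.31 on the log2 scale (SE 0.36, limma adjusted p = 0.0127), so that MMN lay near ILN. This call was lost without MMN 1 (adjusted p = 0.110) and without MLN 1 (adjusted p = 0.0537).

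Among the 17 genes called higher in MMN than ILN were enzymes of hormone, phenylpropanoid and wall metabolism. The gibberellin-inactivating enzyme GA2OX6 read 1349 and 2006 in MMN, 878, 973 and 842 in MLN, and 41.9, 43.7 and 46.0 in ILN. The gibberellin-synthesis enzyme GA20OX2 read 1486 and 944 in MMN, 1003, 773 and 571 in MLN, and 124, 104 and 51.8 in ILN. Their differences from MLN were 0.88 (adjusted p = 0.128) and 0.64 (adjusted p = 0.806) on the log2 scale, and neither was called in the fit of all arrays, while GA2OX6 was called with array weights (0.0313). PAL1, the first enzyme of phenylpropanoid synthesis, read 3385 and 4432 in MMN, 1845, 2488 and 2395 in MLN, and 65.3, 279 and 125 in ILN. BR6OX2, of brassinosteroid synthesis, read 504 and 366 in MMN, 417, 413 and 393 in MLN, and 51.6, 70.5 and 78.0 in ILN. XTH4, of wall loosening, read 375 and 368 in MMN, 276, 411 and 265 in MLN, and 48.0, 63.9 and 53.3 in ILN. Their differences from ILN were 4.88 (adjusted p = 4.78e-05), 2.71 (adjusted p = 3.40e-05) and 2.76 (adjusted p = 3.54e-05) on the log2 scale. MMN overlapped MLN for BR6OX2 and XTH4, and PAL1 differed from MLN by 0.80 (adjusted p = 0.797). None of the 3 was called in MMN against MLN. The 4 genes lower in MMN than ILN were RGL1, a DELLA repressor of gibberellin responses, RD22, BEE2 and ROT3. Among regulators of the style and the top of the gynoecium, NGA2, NGA3 and SHI stayed at or below 51.5 on all arrays, NGA4 reached at most 103, and no member of the list was called in MMN against MLN. GH3.3, an auxin-conjugating enzyme, was low but higher on both MMN arrays than on all lateral ones, at 105 and 90.5 in MMN, 46.8, 41.6 and 53.9 in MLN, and 48.4, 50.9 and 71.0 in ILN. Its difference from MLN, 1.05 on the log2 scale (SE 0.24, limma adjusted p = 0.0852), was called only with the replicate block (adjusted p = 0.0257), with array weights (0.0103), or without ILN 1 (0.0423) or ILN 3 (0.0487).

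**Figure D5:**
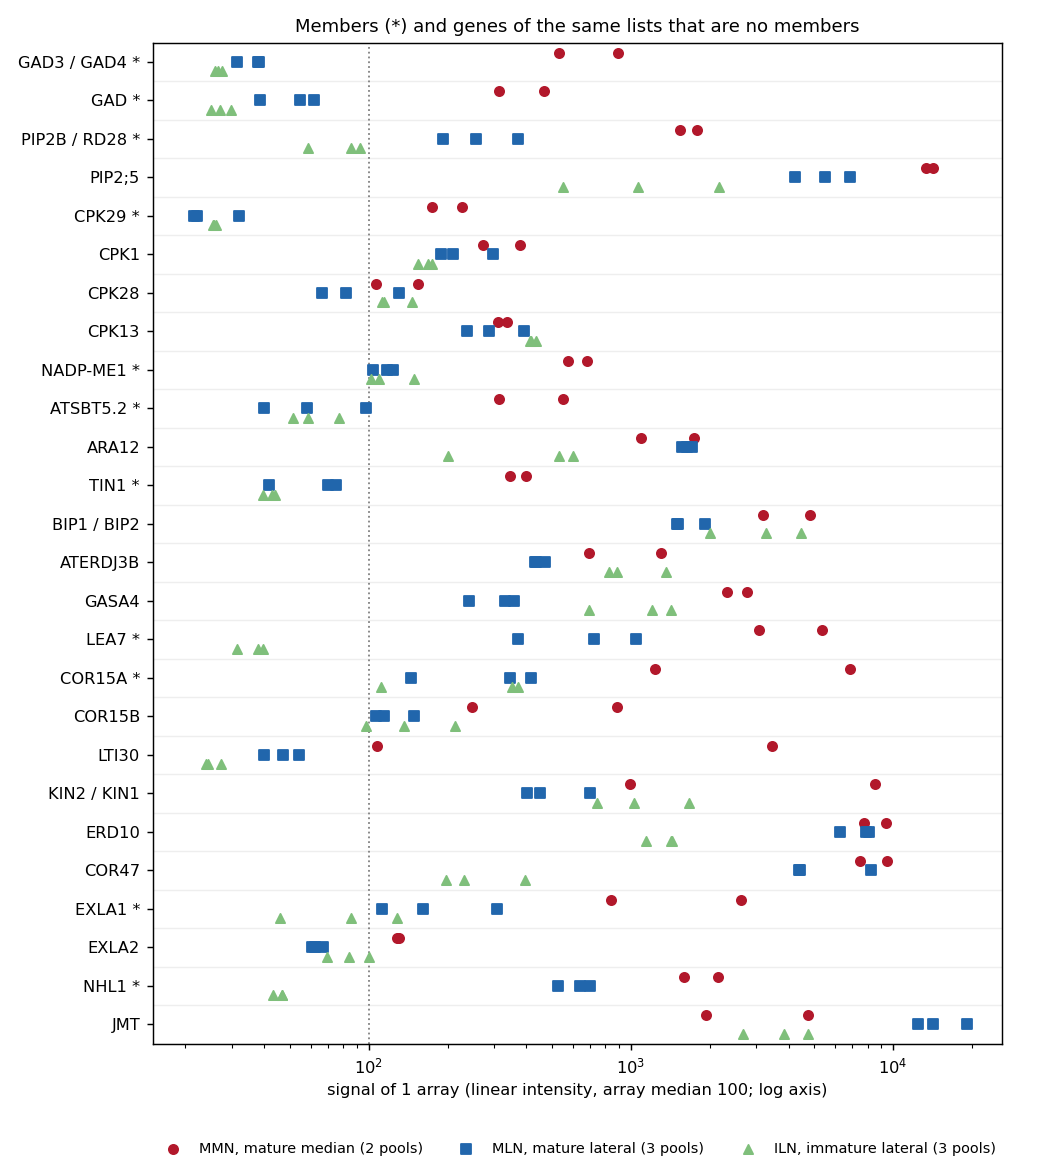
Signal on each array (horizontal, linear intensity on a log axis) for the members of the lists, marked with an asterisk, and for chosen genes of the same lists that are no members, with MMN as red circles above MLN as blue squares above ILN as green triangles and a dotted line at 100. GASA4 is high in MMN and ILN and low in MLN, JMT is highest in MLN, and COR15A, COR15B, LTI30 and KIN2 / KIN1 have 1 MMN array far above the other.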

How the data were processed

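RNA from 2 MMN, 3 MLN and 3 ILN pools was hybridized to Affymetrix ATH1 arrays. The deposited values are linear signal intensities that the authors obtained by RMA with quantile normalization, run together with public arrays of other tissues, and scaled to a median of 100 on every array. These other arrays were not used here. The normalization can pull extreme values together, and signals near 10 carry background. Precision is limited by how few arrays there are.

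The 64 control probe sets were left out of 22810. Log2 signals of all 3 groups were fitted in limma 3.58.1 (R 4.3.3) with a variance trend. Benjamini-Hochberg adjustment covered 22746 probe sets, and the threshold was 0.05. The procedure was tested on simulated data. Pools are separate samples of different plants, and the labels name no batch. Same-numbered MLN and ILN arrays deviated together (correlations of 0.338, 0.241 and 0.211, against -0.300 to 0.016 for other numbers). The labels do not say what arrays of 1 number share, so a pairing is not established, and the main fit uses none. MMN arrays lay between -0.0784 and 0.0784 with all others. With 2 arrays their deviations are equal and opposite, so these values come in pairs of opposite sign and cannot show a pairing. The replicate block was run as an alternative, beside the methods' t-test, further normalizations, other variance settings, a filter on low signals and each array left out.

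Members and lists were chosen with earlier results of these data known. The platform annotation names 1 gene for 25 members. The study's additional tables, used for names only, give 1 gene for 13 more, and 4 are shared by several genes. Those tables were chosen on these arrays, and these names lie outside the rule for named genes. By that rule, members with 1 gene in the annotation are named, the 15 with the largest ratio and those in a list get all signals, and the 6 largest MLN over ILN differences and up to 3 other genes of each list get a test. Of the 10 genes left out, 1 was found through those tables. Symbols come from RefSeq's table for TAIR10.1. Figures were drawn with matplotlib 3.10.9.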

Additional observations from a re-analysis of the deposited data

How the results depend on the processing

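The number of members followed the rule. It was 21 with a limit of 3 times, 225 with the rule on group means (all 68 included), 66 with the lower MMN array also at least 100, 66 after quantile normalization again (61 of them among the 68) and 68 after median log2 centring. With 1 array left out it ran between 68 and 173. Members higher in MLN than ILN numbered 30 with the replicate block (29 of them shared), 22 with dim probe sets filtered out, and 23 to 30 with 1 array left out. The methods' t-test gave 10 (9 of them shared), and the cause was not tested. Members lower in MLN numbered 0 under every alternative, except 258138_at, called without ILN 1 (0 to 1 with 1 array left out). Listed genes that are no members and were higher in MMN than MLN numbered 1, but 8 with array weights, 3 in a fit of only the groups compared, 4 with the replicate block (GASA4, PIP2;5, COR15B and GH3.3), 0 by the methods' t-test and 1 to 5 with 1 array left out. Those lower numbered 1, but 0 by the methods' t-test and 0 to 1 with 1 array left out. In MMN against ILN 17 were higher, with 2 by the methods' t-test and 12 to 18 with 1 array left out, and 4 lower, with 0 by the methods' t-test and 2 to 5 with 1 array left out. The block moved no other count by over 1.5 times. Of 62 named differences, none was called in opposite directions. Values of median nectaries rest on 2 arrays.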
